A study of Rattus norvegicus with 6 samples.

Results

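Has2, Has3, Acan, Bcan, Ncan, Vcan, Hapln1, Hapln4, Tnr and Cd44 encode enzymes, proteoglycans and binding proteins of the hyaluronan matrix, from which perineuronal nets are built. These 10 genes were taken by symbol from a table of 32883 gene rows, each symbol matched 1 row, and all 10 lay among the 17315 genes tested, with 20 reads or more in every library. The RNA was poly-A selected from primary hippocampal neuron cultures prepared from Wistar rat pups at postnatal day 0, as the source and growth labels state. A passage of the library protocol instead names sorted cells from brains of operated animals, which conflicts with the other labels and was not used. At 13 to 15 days in vitro, 3 control cultures received DMSO alone. The other 3 cultures received DMSO carrying 50 µM forskolin, an activator of adenylyl cyclase, 50 nM rolipram, an inhibitor of type 4 phosphodiesterases, and 200 µM picrotoxin, a blocker of GABA-A receptors, a treatment called chemical long-term potentiation (cLTP). No genetic change is named for either group. The sources give no harvest time after treatment, and the labels call the cultures biological replicates without naming litters, so p-values describe the spread between these cultures.

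Hyaluronan is a long sugar chain that synthases of the Has family spin out through the cell membrane from UDP-glucuronic acid and UDP-N-acetylglucosamine. Lecticans, which are chondroitin sulfate proteoglycans, bind this chain through their N-terminal domains, link proteins of the Hapln family lock that bond, and tenascin-R ties the far ends of the lecticans together. Around some neurons, most of all fast-spiking inhibitory ones, the complex condenses into perineuronal nets, which form as circuits mature and limit synaptic plasticity. In bulk RNA of this kind, a higher or lower value can mean more or fewer cells of a type, or more or less transcript per cell. These cannot be told apart.

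After cLTP, the hyaluronan synthase gene Has2 was 4.26-fold higher, and it was the only one of the 10 genes to pass an adjusted p of 0.05 in the test across all genes (limma). Over all tested genes 9.02% passed, 5.71% higher and 3.31% lower, so 1 of 10 is close to the background share. The lectican genes Acan, Bcan, Ncan and Vcan, the link protein genes Hapln1 and Hapln4, the tenascin gene Tnr, the synthase gene Has3 and the hyaluronan receptor gene Cd44 did not pass. When same-numbered cultures were blocked, Cd44 and Hapln1 also passed as higher and Acan as lower (limma adjusted p = 0.00276, 0.0316 and 0.0326). Without the block, the 95% interval of the change excluded a 2-fold difference in either direction for 8 of these 9 genes, the exception being Acan. With the block it did so for all 9. Outside the 10 genes, the synthase gene Has1, the precursor enzyme genes Uap1 and Ugdh, the hyaluronan-binding gene Tnfaip6 and the hyaluronidase gene Cemip2 rose, and the hyaluronidase gene Hyal2 fell. Most other genes of their lists did not pass, as counted below.

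**Figure D1:**
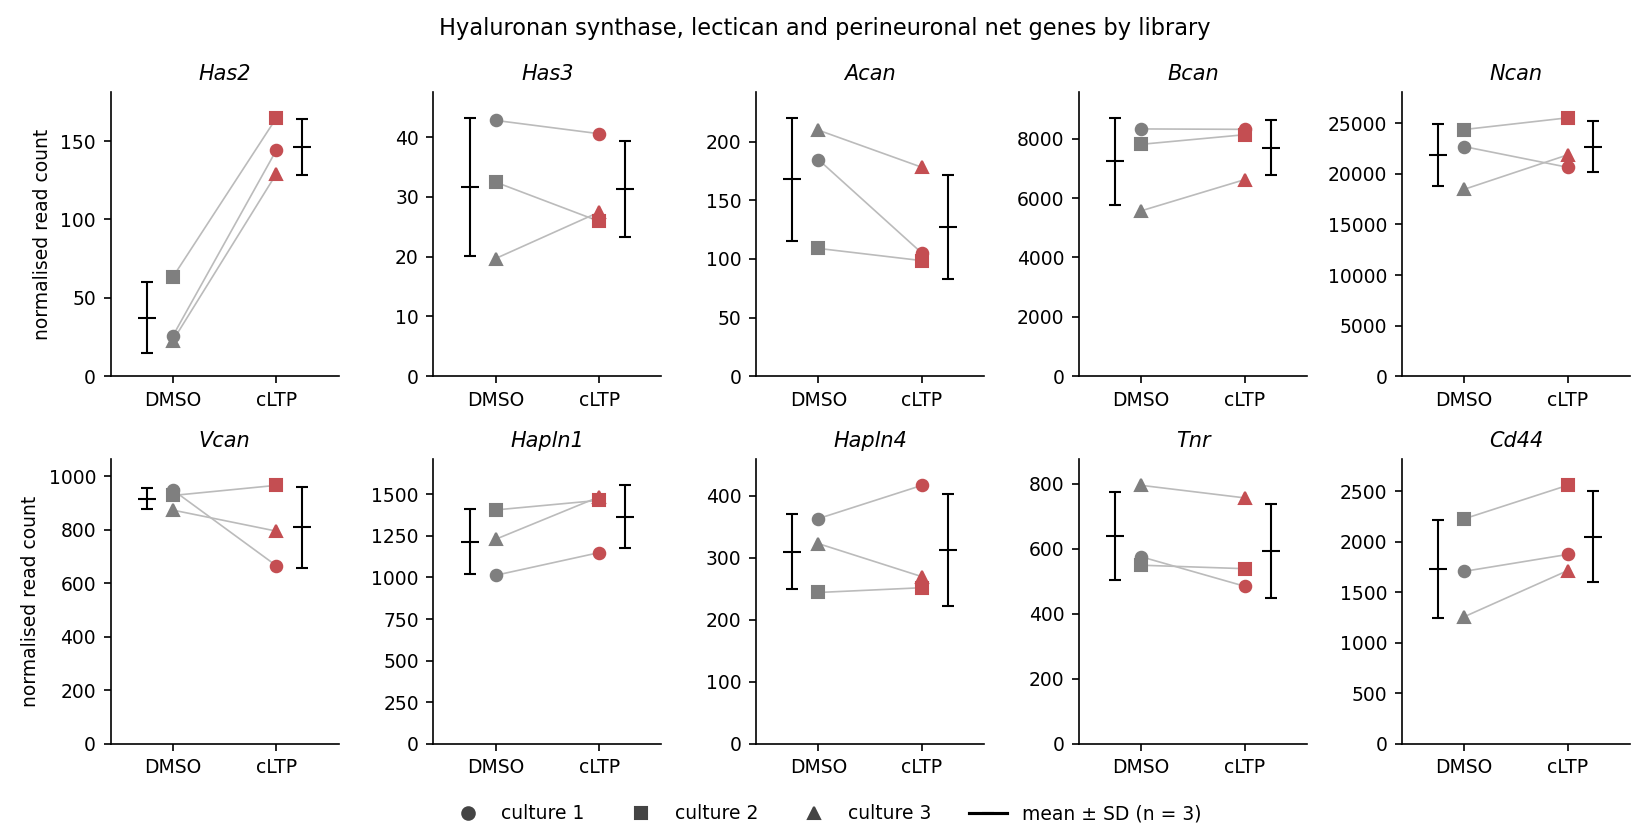
Normalised read counts (vertical axes, from 0) of the 10 genes in 3 DMSO and 3 cLTP cultures; symbols give the culture number, grey lines join equal numbers, and black bars are mean ± SD. Has2 lies at 22.6 to 63.2 in DMSO and 129 to 165 in cLTP, without overlap, while the groups overlap in the other 9 panels.

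The libraries held 10668973 to 12776185 gene-assigned reads. Values below are normalised read counts, scaled per library and not for gene length, so levels of different genes are not ranked against each other. Neuron and astrocyte markers were present in every library, and a few cell type markers differed between the groups. Of 8 neuron markers Nefl rose (1.77-fold, limma adjusted p = 0.0305), and of 10 inhibitory neuron markers Tac1 (3.48-fold, 0.000954) and Sst (1.37-fold, 0.00903) rose. Of 10 astrocyte markers Sox9 fell (0.606-fold, 0.0299; 0.125 when same-numbered cultures were blocked), and of 10 fibroblast and mural markers Pdgfrb fell (0.284-fold, 0.00106). In that blocked fit 3 neuron and 5 inhibitory neuron markers were higher, and 3 astrocyte markers were higher and 1 lower. Over all tested genes 12.9% were higher and 10.7% lower in it. The part of cell makeup in the results below was not tested. Culture 3 of both groups stood apart: its astrocyte marker sum was the lowest of its group (124653 in DMSO and 143737 in cLTP, against 189927 to 201002 in the other cultures), its neuron marker sum the highest, and its microglial marker sum 895 and 908 against 3.38 to 18.1. Pvalb, the marker of fast-spiking inhibitory neurons, was at 6.66 to 16.3 across the 6 libraries. The split of called genes depended on scaling, with 988 higher and 573 lower as deposited, 823 and 1322 with libraries set to equal totals, and 897 and 799 after quantile normalisation. Equal totals shifted the median log2 change of all genes to -0.11, so changes under that scaling are read against this shift.

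Has2 (ENSRNOG00000004854) encodes a synthase that makes long hyaluronan chains. Its normalised counts were 25.7, 63.2 and 22.6 in DMSO cultures 1, 2 and 3, and 144, 165 and 129 in cLTP cultures 1, 2 and 3. All cLTP libraries lay above all DMSO libraries, and DMSO 2 was the highest control. The mean went from 37.2 ± 22.6 to 146 ± 17.9 (SD, n = 3 each), a log2 fold change of 2.09 with a standard error of 0.35 and a 95% interval from 1.29 to 2.89 (limma adjusted p = 0.00744). Culture by culture, the log2 difference was 2.44, 1.37 and 2.46. Leaving out any single library kept the call, with log2 changes from 1.82 to 2.54 and adjusted p from 0.000167 to 0.0355. The control values rest on 23 to 72 reads and the cLTP values on 127 to 159 reads. RefSeq annotates a long non-coding RNA gene whose span overlaps Has2, and as the strand setting of the counting is not given, reads of the overlap cannot be told apart.

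Has3 (ENSRNOG00000059362), a synthase of shorter chains, was counted at 42.8, 32.5 and 19.7 in DMSO and 40.6, 25.9 and 27.5 in cLTP. The groups overlapped fully, and the spread between cultures exceeded any difference between groups. The log2 change was 0.02, with an interval from -0.68 to 0.72 (limma adjusted p = 0.98), and at 20 to 45 reads per library a change within that interval was not detectable. Has1, the third synthase gene of the family and no member of the set of 10, was at 25.7, 19.3 and 42.3 in DMSO and 93.6, 90.2 and 110 in cLTP. It rose 3.44-fold without overlap (limma adjusted p = 0.00343; 0.00017 to 0.023 when 1 library was left out). Thus 2 of 3 synthase genes rose, Has2 being the member already counted, where 5.71% of all tested genes were higher. Whether the response of Has3 differs from theirs was not tested.

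By a rule applied to called members, the genes whose log2 values followed Has2 most closely over the 6 libraries were Polr2m (Pearson r = 0.996), Srsf2 (0.993) and Ppp1cb (0.992), among 8658 genes with a mean of at least 195.5. Likeness here concerns shape and not size: Polr2m went only 1.09-fold, Srsf2 1.23-fold and Ppp1cb 1.12-fold. Like Has2, each had DMSO 2 as its highest control library. With 6 libraries and this many candidates, high values of r are a description only.

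**Figure D2:**
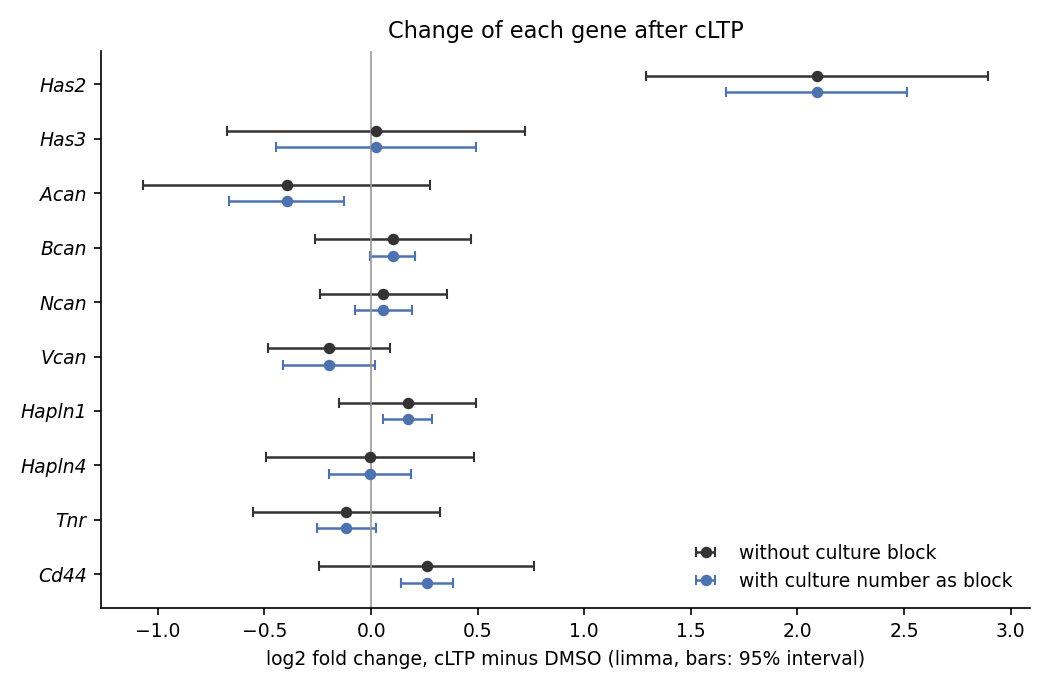
Log2 fold change of each of the 10 genes, cLTP minus DMSO (horizontal axis), with 95% intervals from limma without (black) and with (blue) the culture number as a block. Has2 lies at 2.09, the other 9 lie between -0.40 and 0.26, and with the block the intervals of Acan, Hapln1 and Cd44 lie clear of 0.

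The lecticans carry the chondroitin sulfate of the nets. Aggrecan, encoded by Acan (ENSRNOG00000028992), is the lectican most closely tied to mature nets. Its counts were 185, 109 and 210 in DMSO and 105, 98.5 and 178 in cLTP. The cLTP library was the lower one of each same-numbered pair, by 0.81, 0.14 and 0.24 on the log2 scale, while the groups as such overlapped. The log2 change of -0.40 (95% interval from -1.07 to 0.28) did not pass without the block (limma adjusted p = 0.519).

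Neurocan, encoded by Ncan (ENSRNOG00000048036) and made by neurons and astrocytes of the young brain, was counted at 22707, 24389 and 18471 in DMSO and 20659, 25548 and 21884 in cLTP. Its mean was 21856 ± 3050 and 22697 ± 2544 (log2 change 0.06, 95% interval from -0.24 to 0.36, limma adjusted p = 0.866). These values rest on 18326 reads or more per library. Brevican, encoded by Bcan (ENSRNOG00000018798), an abundant glial and neuronal lectican of the adult brain, was at 8331, 7813 and 5571 in DMSO and 8317, 8137 and 6624 in cLTP. Culture 3 was the lowest in both groups, alongside its low astrocyte marker sum, whose part in this was not tested. The log2 change of Bcan was 0.10, with an interval from -0.26 to 0.47 (limma adjusted p = 0.796).

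Versican, encoded by Vcan (ENSRNOG00000029212), the lectican of early development and of oligodendrocyte lineage cells, was at 948, 928 and 873 in DMSO. In cLTP its counts were 665, 966 and 795, so cLTP 1 and cLTP 3 lay below every control and cLTP 2 above every control. The log2 change was -0.20 (95% interval from -0.48 to 0.09, limma adjusted p = 0.438). The gene-level counts do not separate the splice forms of Vcan or Bcan, which differ in the stretch that carries chondroitin sulfate.

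Link proteins stabilise the bond between lecticans and hyaluronan. Hapln1 (ENSRNOG00000032002), the link protein whose loss weakens nets in mice, was at 1013, 1406 and 1230 in DMSO and 1150, 1464 and 1485 in cLTP. The groups overlapped, although the cLTP library was higher in each pair. Its log2 change was 0.17 (95% interval from -0.15 to 0.49, limma adjusted p = 0.571). Hapln4 (ENSRNOG00000049949), a brain link protein that pairs with brevican in the mouse, was at 363, 244 and 323 in DMSO and 417, 252 and 270 in cLTP, with no common direction between cultures. The log2 change was -0.01, with an interval from -0.49 to 0.48 (limma adjusted p = 0.993).

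In the RefSeq annotation each lectican gene has a link protein gene as its next protein-coding neighbour: Acan with Hapln3, Bcan with Hapln2, Ncan with Hapln4, and Vcan with Hapln1. Neither gene of any of these pairs passed the test without the block, where 9.02% of all tested genes did. Hapln3 was at 33.0 ± 7.16 and 26.4 ± 6.56 (limma adjusted p = 0.573). Hapln2, the link protein of nodes of Ranvier, lay at or under 3 reads in all 6 libraries, the highest being 2.85 in DMSO 1, so no fold is given. Bcan and Hapln2 thus stand beside each other with 5658 reads or more per library for Bcan and 3 or fewer for Hapln2.

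Tenascin-R, encoded by Tnr (ENSRNOG00000002468), joins lecticans into a lattice. It was at 576, 550 and 796 in DMSO and 485, 539 and 757 in cLTP. Culture 3 was the highest in both groups, as was its neuron marker sum, and the part of cell makeup in this was not tested. The log2 change was -0.12, with an interval from -0.56 to 0.32 (limma adjusted p = 0.808). A long non-coding RNA gene overlaps Tnr in the annotation. Of 4 tested genes in the list of tenascins and phosphacan, 0 passed in limma without or with the block. Over all tested genes 9.02% passed without it and 23.5% with it, so 0 of 4 is not read as a result about the list.

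CD44 is the main cell surface receptor for hyaluronan and is made by astrocytes and some neurons. Cd44 (ENSRNOG00000006094) was at 1706, 2226 and 1255 in DMSO and 1874, 2558 and 1713 in cLTP. The groups overlapped, with means of 1729 ± 485 in DMSO and 2048 ± 449 in cLTP (SD). The cLTP library was higher in every same-numbered pair, by 0.14, 0.20 and 0.45 on the log2 scale. Without the block the log2 change of 0.26 (95% interval from -0.24 to 0.76) did not pass (limma adjusted p = 0.584).

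Same-numbered cultures deviated together, culture 3 most clearly, while cultures 1 and 2 also did so across numbers, and the labels state no pairing. With the culture number as a block 4 of the 10 genes passed, where 23.5% of all genes did (12.9% higher and 10.7% lower). Has2 rose (limma adjusted p with the block 1.82e-06), as did Cd44 (0.00276, 95% interval of the log2 change from 0.14 to 0.38) and Hapln1 (0.0316, from 0.06 to 0.29), while Acan fell (0.0326, from -0.67 to -0.12). Without culture 3 of both groups the blocked fit, now of 2 against 2 libraries, called Has2 alone. There the log2 change was -0.48 for Acan (adjusted p = 0.129), against -0.40 with all libraries. It was 0.17 for Cd44 (0.109) and 0.12 for Hapln1 (0.296), against 0.26 and 0.17. Acan passed as lower under each scaling tried with the block, whereas the calls of Cd44 and Hapln1 depended on the scaling. With equal totals and the block, Acan (0.00331), Vcan (0.0123) and Tnr (0.0101) passed as lower, and Cd44 (0.0532) and Hapln1 (0.512) did not pass. After quantile normalisation with the block, Acan (0.0439) and Vcan (0.0454) passed as lower and Cd44 (0.0714) and Hapln1 (0.456) did not. The blocked edgeR test on whole reads called the same 4 genes in the same directions as limma with the block. Over the 10 genes, 5 moved in 1 direction in all 3 cultures, against 52.4% of all tested genes, and 1 had groups that did not overlap, against 28.2%. The median log2 change of the 10 genes was 0.04, against 0.00 over all tested genes.

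The precursors of hyaluronan are nucleotide sugars. Of 13 genes that supply UDP sugars and the sulfate donor, 3 rose and 0 fell. With the block 5 rose and 1 fell (gained: Gfpt1 and Ugp2 as higher, Gnpnat1 as lower). For this list and those below, 5.71% of all tested genes were higher and 3.31% lower. With the block these shares were 12.9% and 10.7%. Uap1, the enzyme that makes UDP-N-acetylglucosamine, was at 465, 485 and 457 in DMSO and 935, 1142 and 1097 in cLTP, a 2.24-fold rise without overlap (limma adjusted p = 6.85e-05). Ugdh, which oxidises UDP-glucose to UDP-glucuronic acid, went from 357 ± 21.6 to 625 ± 41.4 (1.75-fold, adjusted p = 0.000556). Both calls held without any single library (adjusted p up to 0.00078 for Uap1 and 0.0070 for Ugdh). Other sugar supply genes of the list did not pass without the block. Among them were Ugp2 (limma adjusted p = 0.0687), Gnpnat1 (0.131), Gfpt1 (0.325), Gfpt2 (0.446) and Pgm3 (0.879). Papss2, the other called gene, makes the sulfate donor and no sugar; it rose 1.95-fold (0.0395) and lost its call without DMSO 2, DMSO 3 or any 1 cLTP library (0.0685 to 0.125). The list's median log2 change was 0.03.

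**Figure D3:**
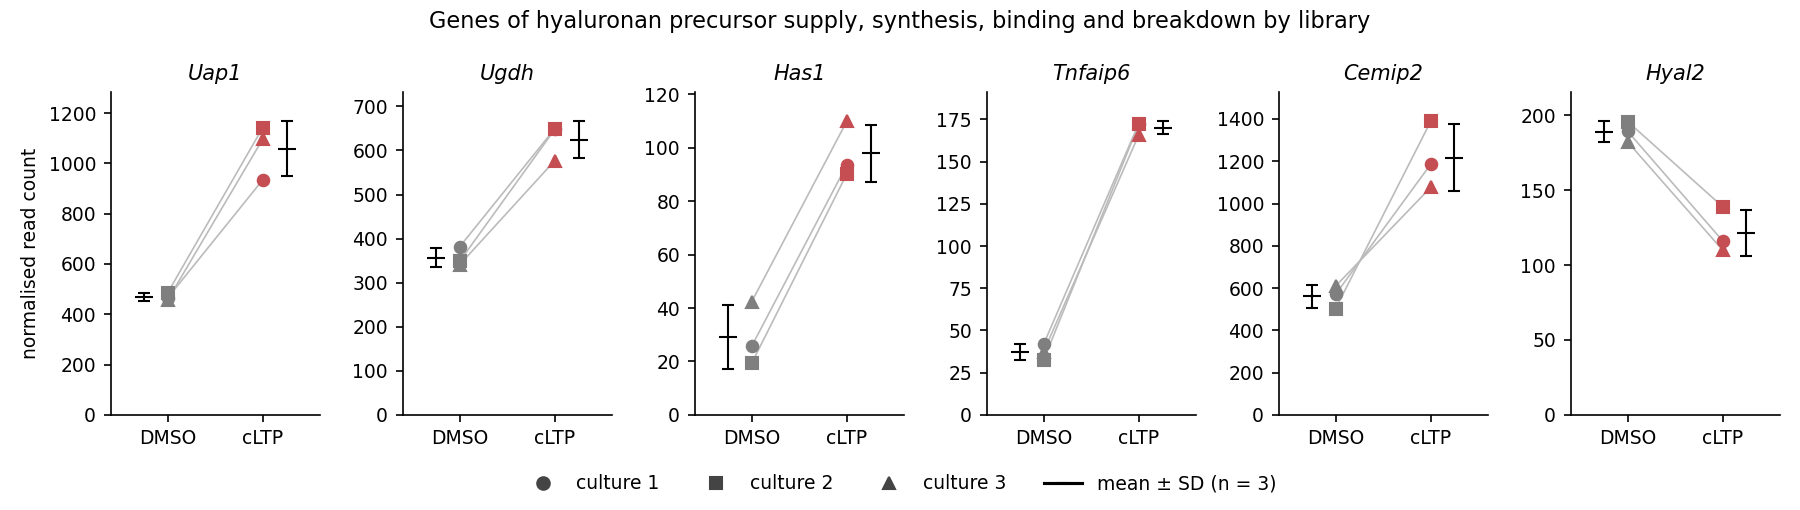
Normalised read counts (vertical axes, from 0) of 6 genes for hyaluronan precursors, synthesis, binding and breakdown in 3 DMSO and 3 cLTP cultures; symbols give the culture number and black bars are mean ± SD. All 6 are genes that passed the test, and genes of the same lists that did not pass are not drawn. In each panel the groups do not overlap, as in 28.2% of all tested genes, with cLTP above DMSO except for Hyal2.

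Among 11 tested hyaluronan receptors and binding proteins, Tnfaip6 alone passed without the block, and Tnfaip6 and Cd44 with it. Tnfaip6 encodes TSG-6, a secreted protein that binds hyaluronan and transfers heavy chains onto it, and was at 41.9, 32.5 and 37.4 in DMSO and 172, 172 and 166 in cLTP. This 4.49-fold rise (limma adjusted p = 2.48e-05) was larger than the spread of either group, and the call held without any single library (up to 0.000703).

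Hyaluronan breakdown genes moved both ways. Of 8 tested, Cemip2, described in the mouse as a cell surface hyaluronidase, rose 2.16-fold from 561 ± 53.9 to 1217 ± 158 (limma adjusted p = 0.000318). Hyal2, a membrane-anchored hyaluronidase, fell from 189 ± 6.81 to 122 ± 15.3 (0.642-fold, adjusted p = 0.0118), with 189, 196 and 182 in DMSO and 116, 139 and 110 in cLTP. The Hyal2 call was lost without DMSO 1 (0.0533), DMSO 2 (0.0562) or cLTP 1 (0.0573).

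Of 16 genes in the list of lectican-cleaving proteases and their inhibitors, 3 rose and 0 fell, where 5.71% of all tested genes rose and 3.31% fell. With the block 8 rose and 0 fell, against 12.9% and 10.7% of all tested genes. Those gained with the block were Adamts4 (limma adjusted p with the block 0.00992), Mmp3 (0.0118) and the inhibitors Timp1 (0.00039), Timp2 (0.048) and Timp3 (4.4e-05). Mmp3 was low, at 0.951, 2.63 and 6.89 in DMSO and 13.5, 10.4 and 10.2 in cLTP, where 3 reads equal 2.63 to 3.38. Adamts1, a protease of aggrecan and versican, rose 17.7-fold to 1693 ± 367, and its relative Adamts9 rose 3.50-fold to 1126 ± 346 (limma adjusted p = 5.19e-05 and 0.0117; 0.0516 for Adamts9 without trend and robust variance). Plat, the other called gene, encodes the tissue plasminogen activator, named for its action on plasminogen and not on lecticans. It rose 3.51-fold from 965 ± 146 to 3393 ± 578 (adjusted p = 0.000122). Protein cleavage was not measured here.

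The sulfated chains of the lecticans are built in the Golgi. Of 23 tested genes in the list of chondroitin sulfate synthesis and sulfation, 3 rose and 1 fell, and with the block 7 rose and 3 fell. Gained with the block were Arsb, Csgalnact2, Dse and Chst3 as higher, and Chst15 and Chpf2 as lower. Arsb, like Galns of this list, encodes a sulfatase that removes sulfate and builds no chain. Over all tested genes 12.9% were higher and 10.7% lower with the block. The median log2 change of the list was 0.01. The chain-extending genes Chpf and Chsy1 were higher by 1.31-fold (2219 ± 53.1 to 2906 ± 118, limma adjusted p = 0.00961) and 1.44-fold (421 ± 67.8 to 603 ± 68.3, adjusted p = 0.0426). Xylt1, which adds the sugar that starts each chain, rose 1.27-fold (adjusted p = 0.0446). Chst12, a chondroitin 4-O-sulfotransferase, fell from 164 ± 11.5 to 103 ± 5.04 (0.631-fold, adjusted p = 0.00736). Chst12 kept its call without any single library. Chpf lost it without DMSO 1 (0.0507) or cLTP 1 (0.0579), and after quantile normalisation (0.0578). Chsy1 kept it only without DMSO 2 or cLTP 3 among the 6 (0.0731 to 0.155 otherwise), and Xylt1 lost it without any library except DMSO 1 (0.095 to 0.163). With equal totals Chsy1 (0.0623), Xylt1 (0.136) and Papss2 (0.0505) did not pass.

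Of 14 tested receptors and ligands of net glycans, Nptx2, a secreted pentraxin that gathers at nets in the mouse, was the 1 called gene. With the block Ptn and Mdk passed as higher and Lingo1 and Rtn4rl1 as lower, where 12.9% of all tested genes were higher and 10.7% lower. Nptx2 rose 3.82-fold from 693 ± 347 to 2453 ± 166 (limma adjusted p = 0.00732). Limma did not call it with the block (log2 change 1.93, adjusted p = 0.0785) or without culture 3 of both groups (1.86, 0.309), while edgeR with the block did (1.89, 1.77e-07). Of 12 genes listed as other brain chondroitin sulfate proteoglycans, 0 passed in limma without the block. With the block 1 passed as lower, Smc3, which encodes a subunit of the chromosome complex cohesin.

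**Figure D4:**
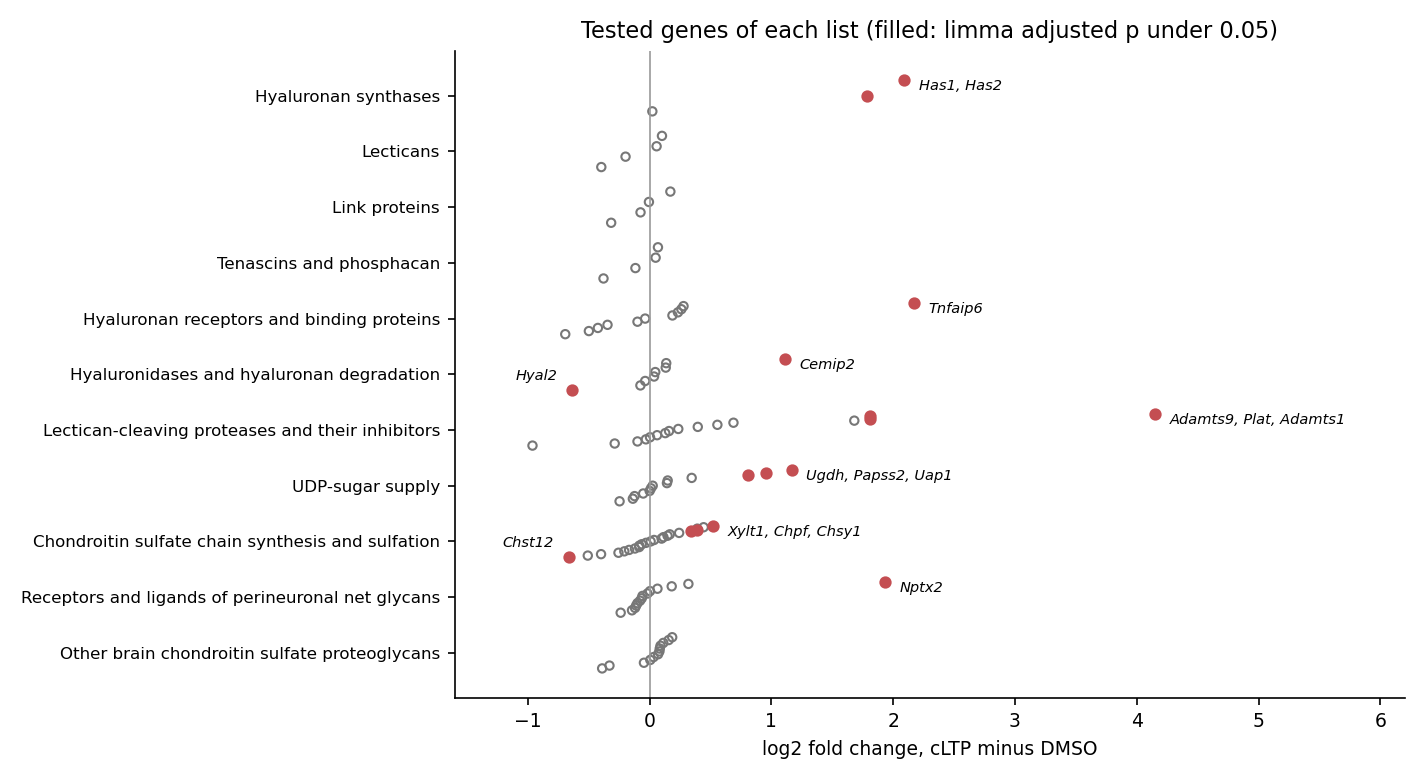
Log2 fold change, cLTP minus DMSO (horizontal axis), of the tested genes in 11 lists of the hyaluronan matrix; each point is a gene, and filled, named points passed a limma adjusted p of 0.05. Over all tested genes 9.02% passed. The lectican, link protein, and tenascin and phosphacan lists, of 4 tested genes each, hold no filled point, and Adamts1 lies farthest right at 4.15.

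Promoter windows were read for the called genes and the 10 genes, since cAMP acts on transcription through the CRE motif (TGACGTCA). Each window is the 250 bases before the RefSeq start in build GRCr8. Entries matched 8 of the 10 genes, all but Has2 and Has3, and 13 of 16 called list genes. The CRE was searched on both strands, as were its core TGACG, which it contains, and the AP-1 motif TGACTCA. Of all 33469 windows, 1.59% held the CRE, 18.2% the core and 4.05% the AP-1 motif. The windows of Acan, Bcan, Ncan, Hapln4, Tnr and Cd44 held none of the 3 motifs. Hapln1 and a start of Vcan held the core alone. Among called list genes, Has1 held 1 CRE, Chpf held 2, and Tnfaip6 held an AP-1 motif. These windows are shown 5′ to 3′ on the gene's strand with motif matches in capitals. A match is a description of letters and shows no binding.
Has1, chr1:67378445-67378694, minus strand: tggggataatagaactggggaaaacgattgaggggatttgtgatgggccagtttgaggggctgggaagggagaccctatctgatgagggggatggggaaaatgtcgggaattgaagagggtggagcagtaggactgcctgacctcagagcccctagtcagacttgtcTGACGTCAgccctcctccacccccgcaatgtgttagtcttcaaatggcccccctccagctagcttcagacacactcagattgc
Chpf, chr9:84416524-84416773, minus strand: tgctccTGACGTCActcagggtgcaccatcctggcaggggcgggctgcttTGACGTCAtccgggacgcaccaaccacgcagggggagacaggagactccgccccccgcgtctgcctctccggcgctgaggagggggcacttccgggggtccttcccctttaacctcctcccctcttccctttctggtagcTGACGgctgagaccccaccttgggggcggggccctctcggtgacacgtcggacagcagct
Tnfaip6, chr3:56911148-56911397, plus strand: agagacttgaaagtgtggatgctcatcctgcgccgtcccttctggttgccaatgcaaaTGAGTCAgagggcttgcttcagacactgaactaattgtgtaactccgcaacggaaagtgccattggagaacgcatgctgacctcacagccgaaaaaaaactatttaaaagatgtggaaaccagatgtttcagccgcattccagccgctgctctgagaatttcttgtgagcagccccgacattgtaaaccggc
Hapln1, chr2:22366717-22366966, plus strand: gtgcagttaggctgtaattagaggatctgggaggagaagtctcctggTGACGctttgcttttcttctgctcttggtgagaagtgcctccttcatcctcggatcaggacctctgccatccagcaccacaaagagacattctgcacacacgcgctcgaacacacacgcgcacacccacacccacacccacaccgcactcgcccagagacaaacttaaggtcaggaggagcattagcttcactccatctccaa
Vcan, chr2:22595858-22596107, minus strand: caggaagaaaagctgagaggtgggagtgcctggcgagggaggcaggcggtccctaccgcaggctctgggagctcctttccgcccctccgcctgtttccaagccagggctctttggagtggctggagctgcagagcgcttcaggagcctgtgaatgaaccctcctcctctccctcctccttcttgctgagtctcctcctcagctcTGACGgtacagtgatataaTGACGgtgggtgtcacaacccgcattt

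In Has1 the CRE begins 83 bases before the start. In Chpf the CRE copies begin 244 and 200 bases before it, with a further core match at 60, and in Tnfaip6 the AP-1 match begins at 192. The core match of Hapln1 begins at 203 and those of Vcan at 46 and 27. Uap1, Xylt1, Adamts1 and Nptx2 each held 1 core match as well, and Ugdh, Hyal2, Chsy1, Chst12, Papss2 and Adamts9 held none of the 3 motifs.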

How the data were processed

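The submitters' processing notes name rat build rn6 and the tools bcl2fastq, STAR and DESeq2; no versions, counting tool or strand setting are stated in the sources. The authors deposited 1 normalised signal value per gene and library. Dividing by the smallest value of each library gave whole numbers, within 0.01, for 100% of values above 0, and these were used as whole reads. Values were tested as log2(value + 1) with limma 3.58.1 (trend and robust, R 4.3.3), for genes with a mean of at least 1, 3 cLTP against 3 DMSO libraries, Benjamini-Hochberg over all 17315 genes, two-sided, threshold 0.05. Fold changes on this scale understate low genes; 3 reads equal 2.63 to 3.38. Alternatives included edgeR 4.0.16 and DESeq2 1.42.0 on whole reads. The fits were also run on simulated counts drawn without a culture effect. That run cannot decide between the fits with and without the block. No library repeated another of its group (chi-square of 4.01 to 20.0 per degree of freedom). Deviations of same-numbered libraries correlated at 0.22, 0.30 and 0.54, each above 0.1. Those of DMSO 2 with cLTP 1 (0.16) and of DMSO 1 with cLTP 2 (0.19) also did. The check thus sets culture 3 apart but cannot show how cultures 1 and 2 pair. The main fit used no pairs. The numbers were taken as pairs for the blocked fits and the culture-by-culture differences, and the labels do not state this.

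The 10 genes and the lists were chosen with earlier results of these data known. All 10 genes are named; from each list every called gene is named where 6 or fewer passed; list genes gained with the block were named after their values were seen; likeness takes the 3 highest correlations per called member. Hapln3 and Hapln2 are named as neighbours of lecticans. Gene names are those of the table, and promoter sequences are RefSeq's (GRCr8), a build other than that of the counts.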

Additional observations from a re-analysis of the deposited data

How the results depend on the processing

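Has2 kept its call and direction under all 21 alternatives. The number of members called stayed at 1 except with the culture number as a block: 4 in limma, 4 with equal totals, 3 after quantile normalisation and 4 in edgeR, and 1 without culture 3 of both groups. Over all genes, 1561 passed, 4075 with the replicate block, 973 without trend and robust, and 953 to 1408 when 1 library was left out. With the block and equal totals 5399 passed, with the block and quantile normalisation 4344, and with the block in edgeR 4066; the cause was not tested. The 4 blocked fits that change a further choice were chosen after seeing the data.

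Some log2 changes of members that did not pass changed sign. Has3 was -0.031 in edgeR, -0.021 in DESeq2, -0.018 in edgeR with the block, -0.089 with equal totals (without or with the block), -0.195 without culture 3 (likewise), and -0.273 to 0.268 when 1 library was left out. Bcan was -0.014 with equal totals and -0.125 after quantile normalisation (without or with the block), and -0.076 to 0.214 with 1 library left out. Ncan was -0.058 with equal totals, -0.003 after quantile normalisation and -0.035 without culture 3 (each without or with the block), and -0.058 to 0.142 with 1 library left out. Hapln4 was 0.006 in edgeR, 0.012 in DESeq2, 0.122 without culture 3 (without or with the block), and -0.231 to 0.132 with 1 library left out, and Tnr -0.304 to 0.051. None of these 5 passed in those fits.

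Has2, Has3 and Acan rest on 20 to 213 reads per library, and the other members on 243 or more.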

Other observations

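Some genes of the hyaluronan receptor and protease lists followed the culture and not the treatment. They were chosen after their values were seen. Stab1, a scavenger receptor gene, was at 557 in DMSO 3 and 423 in cLTP 3, and at 2.63 to 5.64 in the other 4 libraries. Ctss, a lysosomal protease, was at 77.8 and 84.4 in culture 3 and at 0 to 1.90 elsewhere. Lyve1, a hyaluronan receptor of lymphatic vessels and some macrophages, was at 25.6 and 16.3 in culture 3 and at 0.878 to 4.15 elsewhere. Of the 9 microglial markers in the table, summed values were 895 and 908 in culture 3 and 3.38 to 18.1 in the other libraries. Whether microglia or macrophages carry these transcripts was not tested.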
